A study of Penaeus japonicus with 16 samples.

Results

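Hemocyanin transcripts were followed with 15 of the 13875 probes of a custom 1-colour oligonucleotide array in 5 tissues of the kuruma shrimp, Penaeus japonicus, called Marsupenaeus japonicus in the sequence titles of the array. A probe was included when its product name, or its sequence title where it had no product name, contained the word hemocyanin. The 16 arrays held total RNA of hepatopancreas (3 arrays, numbered 1, 3 and 4), hemocytes (4 arrays), lymphoid organ (3 arrays), gills (3 arrays) and muscle (3 arrays). Every sample came from live, apparently healthy shrimp that had not been treated, and tissue was the only factor. No age or strain was given, and nothing in the labels told separate animals from repeat arrays, so p-values reflect the spread between these samples, which may be technical.

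Hemocyanin is the blue copper protein that carries oxygen in the hemolymph of decapod crustaceans. It circulates outside the cells as hexamers, or pairs of hexamers, of related subunits, each of which binds oxygen between a pair of copper ions. In decapods it is known to be made in the hepatopancreas, the digestive gland, and released into the hemolymph. Prophenoloxidase, the melanin-forming enzyme of hemocytes, belongs to the same protein superfamily, and crustacean hemocyanins are themselves known for phenoloxidase activity and for antimicrobial fragments.

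The 15 probes carried 6 distinct descriptions. 4 were designed on named sequences of the species: hemocyanin subunit L and hemocyanin subunit Y with complete coding sequences, and hemocyanin 1 and an unnumbered hemocyanin with partial ones. The other 11 were designed on assembled contigs. 10 contigs, of 793 to 4087 bases, were described as hemocyanin without a subunit name, and their headers placed them in the same assembly locus of 87117 transcripts. That locus supplied 3241 probes of the array with 2289 distinct descriptions, so membership in it did not tie the 10 contigs to 1 gene. The remaining contig, cluster012446 (2048 bases), was described as hemocyanin subunit 1 and came from a locus of 3 transcripts. It is called subunit 1 below, by its array description. None of the 15 probes matched an entry of the RefSeq gene table used here, and probe sequences were not used, so hybridisation of a probe to transcripts of another subunit was not tested.

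Signals are given as log2 levels, the log2 of a probe's signal minus the log2 of the 75th percentile of signals on the same array. A level of 0 therefore equals that percentile, and differences were tested between arrays for the same probe. Levels of different probes were not tested against each other, though they were summed over lists and ranked to choose members. A probe was called in a pair of tissues when limma's moderated test gave an adjusted p below 0.05 and the fitted difference was at least 2-fold, and the log2 difference and its standard error (SE) come from that fit. A spot was detected when its flag said so. For a probe with an undetected spot, folds are given as lower bounds. Undetected spots below the weakest detected signal on their array were first raised to that signal, and other undetected spots kept their own value.

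Across the array, 41.0 to 82.3% of the 13875 probes were detected per array, and the 75th percentile of signals ran from 31.3 to 299.7. The summed signal of each marker list was highest in the tissue it was made for. No marker list was made for lymphoid organ, so its arrays were not checked in this way. The summed signal of 87 digestive enzyme probes, in multiples of the 75th percentile, was 12202 to 51488 on hepatopancreas arrays and at most 194 on the other 13. That of 31 muscle probes was 35708 to 63620 on muscle arrays and at most 415 elsewhere, and that of 39 hemocyte probes was 4162 to 6434 on hemocyte arrays and at most 879 elsewhere. The 83 probes of the gill list summed to 304 to 544 on gill arrays and to at most 261 elsewhere. Their median level, however, was -0.76 on the median gill array and -0.72 on the median hepatopancreas array. In hepatopancreas against gills 14 of the 83 were called higher and 14 lower, near the 16.9% and 16.8% of all tested probes.

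The share of array signal held by hemocyanin was largest in hepatopancreas. The 15 probes together made up 12.2, 16.8 and 5.61% of the summed signal on hepatopancreas arrays 1, 3 and 4, and at most 0.0757% on any of the other 13 arrays. The highest hemocyanin signal was 355256 units on hepatopancreas array 3, where the highest signal of the array was 468305. Saturation flags were not used here, so compression of such signals was not tested. All 15 probes were detected on the 3 hepatopancreas arrays and on the 3 lymphoid organ arrays. Hemocyte arrays detected 5 to 14 of them, gill arrays 10 to 15 and muscle arrays 6 to 15. 3 probes, subunit Y, cluster030425 and cluster030517, were detected on all 16 arrays.

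For 14 of the 15 probes the hepatopancreas stood far above every other tissue. These 14 exceeded every other tissue by at least 100-fold with an adjusted p below 0.05 in each pair (limma), a criterion that 2.10% of all 10317 tested probes met, while 6.97% met it at 4-fold. In these 14 the lowest hepatopancreas array was above the highest of the other 13 arrays, which held for 10.7% of the probes with usable spots on every array. The exception was subunit 1, which is described separately below and was set apart after its values were seen. In bulk tissue, fewer cells of a type and less RNA per cell cannot be told apart.

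Subunit Y, a subunit with a complete coding sequence, had log2 levels of 12.72, 12.93 and 11.02 on hepatopancreas arrays 1, 3 and 4. On the other arrays it had 1.88, -2.64, -0.76 and 3.31 in hemocytes, 4.60, 5.35 and 4.43 in lymphoid organ, 1.89, -0.93 and 1.64 in gills, and 5.40, 1.34 and 1.20 in muscle. The hepatopancreas arrays lay apart from all others, the lymphoid organ arrays lay close together, and muscle array 1 lay above all lymphoid organ arrays. The difference from hepatopancreas was smallest for lymphoid organ, at 7.43 on the log2 scale (SE 1.31, 173-fold, adjusted p = 4.16e-04). It was 9.58 from muscle (764-fold, adjusted p = 2.26e-05), 11.36 from gills (2629-fold, adjusted p = 4.70e-06) and 11.78 from hemocytes (3514-fold, adjusted p = 8.82e-07).

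Subunit L, the other subunit with a complete coding sequence, had levels of 10.28, 11.68 and 8.59 in hepatopancreas. It had -1.89, -5.91, -3.65 and -0.16 in hemocytes, where array 2 was undetected, and 0.81, 2.00 and 2.26 in lymphoid organ. Gills had -1.21, -3.74 and -1.78, and muscle had 1.65, -2.40 and -1.35. The 3 hepatopancreas arrays lay apart from all others, and the ranges of gills and hemocytes overlapped. Hepatopancreas was 359-fold above lymphoid organ (log2 difference 8.49, SE 1.26, adjusted p = 8.60e-05) and at least 6941-fold above hemocytes (log2 difference 13.08, SE 1.18, adjusted p = 1.96e-07).

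The contig cluster027645 had the largest difference between its highest and its lowest tissue. Its levels were 10.98, 12.05 and 10.05 in hepatopancreas, and -2.08, -5.86, -4.13 and 0.52 in hemocytes, with array 2 undetected. Lymphoid organ had 2.28, 2.15 and 2.06, gills had -1.76, -3.98 and -0.89, and muscle had 2.69, -1.60 and -2.45, with array 3 undetected. Its 3 lymphoid organ values were the most alike of any tissue, and hemocytes and muscle spread over more than 5 log2 units. Hepatopancreas exceeded hemocytes by 13.92 on the log2 scale (SE 1.30, at least 12464-fold, adjusted p = 2.67e-07).

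The contig cluster030501 was detected on 8 of 16 arrays, the fewest of the 15 probes. It had levels of 6.61, 8.74 and 5.33 in hepatopancreas, and -1.41, -0.97 and -0.08 in lymphoid organ. It was undetected on all 4 hemocyte arrays, on 2 of 3 gill arrays and on 2 of 3 muscle arrays, with signals of -4.64, -5.17, -6.49 and -3.79 in hemocytes, -0.78, -6.27 and -3.65 in gills and -2.35, -4.34 and -4.22 in muscle. Array 1 of gills and array 1 of muscle were the only ones detected outside hepatopancreas and lymphoid organ. Hepatopancreas was at least 1945-fold above hemocytes (adjusted p = 1.76e-07) and 211-fold above lymphoid organ (adjusted p = 7.82e-05).

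The contig cluster030545 had levels of 8.47, 11.23 and 4.03 in hepatopancreas, an SD of 3.63 that was the widest of the 14 in that tissue. It had -1.96, -0.20 and 0.52 in lymphoid organ, -4.25, -6.85, -5.68 and -3.57 in hemocytes, -2.10, -4.93 and -4.52 in gills and -1.50, -2.55 and -2.60 in muscle. It was undetected on hemocyte arrays 1, 2 and 3, gill array 3 and muscle array 3. Even so, its lowest hepatopancreas array stayed above its highest array of any other tissue. Hepatopancreas exceeded lymphoid organ by 8.46 (SE 1.35, 352-fold, adjusted p = 1.64e-04).

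The other 9 probes moved in the same way. Hemocyanin 1 averaged 9.69 ± 1.61 in hepatopancreas (SD, n = 3), -2.90 ± 1.80 in hemocytes (n = 4), 1.10 ± 0.44 in lymphoid organ, -2.56 ± 2.31 in gills and -1.28 ± 1.99 in muscle (n = 3 each). The unnumbered partial hemocyanin averaged 8.38 ± 1.67 in hepatopancreas, -4.66 ± 1.98 in hemocytes, -0.08 ± 0.59 in lymphoid organ, -3.25 ± 2.18 in gills and -2.52 ± 1.82 in muscle. The contig cluster027310 averaged 8.88 ± 1.34 in hepatopancreas, -3.56 ± 1.53 in hemocytes, -0.04 ± 0.21 in lymphoid organ, -3.20 ± 1.45 in gills and -1.88 ± 2.28 in muscle, and had the largest fold over lymphoid organ, 486-fold.

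Of the other 6 contigs, cluster030425 averaged 11.69 ± 1.47 in hepatopancreas, -1.52 ± 2.10 in hemocytes, 2.99 ± 0.66 in lymphoid organ, -1.20 ± 1.53 in gills and 0.73 ± 1.90 in muscle. The contigs cluster030516, cluster030517 and cluster030520 averaged 11.64 ± 1.40, 11.59 ± 1.32 and 11.62 ± 1.52 in hepatopancreas, and 2.99 ± 0.69, 3.07 ± 0.73 and 2.89 ± 0.73 in lymphoid organ. In the other 3 tissues their means lay between -1.77 (cluster030520 in hemocytes) and 0.72 (cluster030517 in muscle). The contig cluster030498 averaged 8.97 ± 1.26 in hepatopancreas, -4.38 ± 2.37 in hemocytes, 0.57 ± 0.29 in lymphoid organ, -3.00 ± 2.56 in gills and -1.82 ± 2.06 in muscle. The contig cluster030519 averaged 7.89 ± 1.90 in hepatopancreas, -4.86 ± 1.81 in hemocytes, -0.35 ± 0.78 in lymphoid organ, -3.08 ± 1.91 in gills and -2.65 ± 1.38 in muscle. In every one of the 14, hepatopancreas was highest and lymphoid organ next by the mean of its arrays.

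In hepatopancreas against hemocytes, 14 of the 15 probes were called higher, with a median log2 difference of 13.04 over all 15 and of 12.50 with undetected spots at their bound. Of all tested probes 25.9% were called higher, and their median difference was -0.21. The 14 differences ran from 11.78 (subunit Y) to 13.92 (cluster027645), with adjusted p from 6.83e-08 to 8.82e-07. Within slide 2, fitted alone, 14 were called. Slide 1 held 1 hepatopancreas array, so no count is given for it.

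In hepatopancreas against lymphoid organ, 14 of 15 were called higher, against 10.1% of all tested probes, with a median of 8.49 over all 15. The 14 were 173-fold to 486-fold higher, with every spot of both tissues detected, and adjusted p ran from 1.17e-05 to 4.16e-04. Within slide 1 alone, which holds 1 hepatopancreas array, the median was 8.77. Within slide 2 alone, which holds 1 lymphoid organ array, it was 7.88. A lone array of a tissue was assumed there to vary like the other tissues, and fewer probes were called in both.

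In hepatopancreas against gills, 14 of 15 were called higher, against 16.9% of all tested probes. The median was 12.08, and the 14 were at least 1174-fold to 9657-fold higher. In hepatopancreas against muscle, all 15 were called higher, against 21.6% of all tested probes, with a median of 10.87 (10.36 at the bounds). Apart from subunit 1 these differences ran from 9.58 (subunit Y) to 11.48 (cluster027645). Within slide 2 alone 14 were called against gills. Slide 1 held 1 hepatopancreas array and 1 gill array, and slide 2 held 1 muscle array. No count is therefore given for the other fits within a slide.

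Below the hepatopancreas, the lymphoid organ carried more hemocyanin signal than hemocytes. In hemocytes against lymphoid organ 14 of 15 probes were called lower, against 14.8% of all tested probes, with a median log2 difference of -4.54 over all 15 and -4.10 at the bounds. The 14 were at least 9.23-fold to 26.9-fold lower in hemocytes, with adjusted p from 0.00532 to 0.0187. For these 14 every hemocyte array lay below every lymphoid organ array, which held for 19.0% of all probes compared. Within slide 1 alone 3 were called and within slide 2 alone 0, and 14 and 9 were lower at an unadjusted p below 0.05. The medians there were -4.87 and -4.56.

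The lymphoid organ was also above gills for some probes. In lymphoid organ against gills 4 of 15 were called higher, against 4.32% of all tested probes, and all 15 had a positive difference, with a median of 3.67. The 4 were cluster030520 (4.25, SE 1.16, adjusted p = 0.0285), cluster030425 (4.20, SE 1.15, adjusted p = 0.0294), cluster030516 (4.15, SE 1.17, adjusted p = 0.0343) and cluster030517 (4.09, SE 1.18, adjusted p = 0.0383). Of these, cluster030425 had 2.44, 2.82 and 3.72 in lymphoid organ and -0.30, -2.97 and -0.35 in gills. The other 10 of the 14 had differences of 2.74 to 4.37 that missed the threshold after adjustment, and 14 of 15 had an unadjusted p below 0.05. In 13 of 15 the lymphoid organ arrays all lay above the gill arrays, which 15.6% of all probes compared did. The count of calls was 0 without any of the 3 lymphoid organ arrays or without gill array 2, 2 without gill array 3, and 7 to 11 without gill array 1, hemocyte array 2, hemocyte array 4 or muscle array 1. Within either slide alone 0 were called, with medians of 1.74 in slide 1 and 5.02 in slide 2, and 0 and 13 were higher at an unadjusted p below 0.05. At that unadjusted p, 7 to 14 were higher in each fit without a lymphoid organ array or gill array 2.

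In the remaining pairs few or no probes were called. In lymphoid organ against muscle 0 of 15 were called in either direction (limma, 1 higher at an unadjusted p below 0.05), with a median of 2.38 and a lowest adjusted p of 0.0696. Of all tested probes 31.9% were called in that pair. Without muscle array 1, 7 were called higher, and within either slide 0 were called (1 and 2 at an unadjusted p below 0.05). In gills against muscle 0 of 15 were called (0 at an unadjusted p below 0.05), with a median of -1.54 and a lowest adjusted p of 0.229, where 28.7% of all tested probes were called. Without muscle array 1 that median was -0.19. In hemocytes against gills 0 of 15 were called (limma, 1 at an unadjusted p below 0.05), with a median of -0.60, where 26.5% of all tested probes were called. That median turned to 0.31 without hemocyte array 2 and was -1.47 without hemocyte array 4.

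In hemocytes against muscle the median was -2.21, and 1 probe, subunit 1, was called higher in hemocytes, as were 19.9% of all tested probes. None was called lower (limma), against 21.9% of all tested probes, and 2 were lower at an unadjusted p below 0.05. That count rested on single arrays, since 8 were called lower without hemocyte array 4, and 11 with arrays weighted by their quality. Within either slide alone 0 were called, while at an unadjusted p below 0.05 there were 9 lower in slide 1 and 1 higher in slide 2.

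By tissue means 13 of the 15 probes ran in the order hepatopancreas, lymphoid organ, muscle, gills, hemocytes. In cluster030501 gills came before muscle, and subunit 1 had an order of its own. For the 14, no step from lymphoid organ to muscle, from muscle to gills or from gills to hemocytes was called.

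The spread between arrays of a tissue was itself shared by the 14 probes. These levels include the array's own 75th percentile, which was 34.1, 38.6 and 125.6 on hepatopancreas arrays 1, 3 and 4. In unscaled signal cluster030516 was lowest on hepatopancreas array 1 (109839, against 150734 on array 4). It was still highest of its tissue on hemocyte array 4 (261) and muscle array 1 (223). The part of the scaling in the shared order was not tested. Hepatopancreas array 3 was the highest and array 4 the lowest of that tissue for all 14, with a median gap of 2.98 log2 units. Hemocyte array 4 was the highest of its tissue for all 14, with a median gap of 4.73 to the lowest. Gill array 2 was the lowest for all 14 and gill array 1 the highest for 12. Muscle array 1 was the highest for all 14, a median 3.65 above the lowest array. The lymphoid organ was the least variable, with a median gap of 1.30. For a single probe such as subunit Y the gap within hemocytes, between 3.31 on array 4 and -2.64 on array 2, was larger than its whole difference between lymphoid organ and gills.

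The 14 probes were close to each other in profile. Over all 16 arrays each correlated at 0.972 to 0.997 (Pearson) with the mean of the other members, and over the 13 arrays outside hepatopancreas at 0.884 (cluster030501) to 0.985 (cluster030425). These are descriptions over arrays that share their RNA and scaling. The contigs cluster030425, cluster030516, cluster030517 and cluster030520 were the most alike, with pairwise correlations of at least 0.9991 and an SD of their log2 difference of 0.14 to 0.23. These are also the 4 that were called in lymphoid organ against gills. Subunit L followed them with an SD of 0.26 to 0.38. Whether these 4 probes bind the same transcripts was not tested. By correlation subunit Y was closest to cluster027645 (0.9958). By the SD of the log2 difference it was closest to subunit L (0.71, against 0.90 with cluster027645).

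Subunit 1 was the exception among the 15. Its levels were -0.41, -0.79 and -1.53 in hepatopancreas, -0.84, -1.43, -1.30 and -1.11 in hemocytes, and -1.64, -2.03 and -1.74 in lymphoid organ. Gills had -1.65, -3.34 and -3.06, and muscle had -1.32, -3.66 and -4.28, where arrays 2 and 3 were undetected. The probe was thus detected on 14 of 16 arrays at a modest level, and its hepatopancreas and hemocyte values overlapped. Hepatopancreas differed from hemocytes by 0.26 on the log2 scale (95% confidence interval -1.07 to 1.59, adjusted p = 0.749), an interval that does not reach the smallest difference of the other 14, 11.78. From lymphoid organ it differed by 0.89 (-0.53 to 2.31, adjusted p = 0.366), though the 3 hepatopancreas arrays lay above the 3 lymphoid organ arrays, as in 18.2% of all probes compared.

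Subunit 1 was lowest in gills and muscle. Hepatopancreas exceeded muscle by 2.17 (SE 0.67, adjusted p = 0.0142, at least 2.26-fold) with 1 of 3 muscle arrays detected, and the groups overlapped through muscle array 1. That call was lost within slide 1 (adjusted p = 0.178) and without hepatopancreas array 1, muscle array 2 or muscle array 3, at adjusted p up to 0.0805. Within slide 2 the adjusted p was 0.0438. Hemocytes exceeded muscle by 1.91 (SE 0.63, adjusted p = 0.0219, at least 1.88-fold), a call lost without muscle array 2 or 3, at adjusted p up to 0.130, and within either slide (0.296 and 0.0560). Hepatopancreas exceeded gills by 1.77 (SE 0.67, adjusted p = 0.0509), just above the threshold, with no overlap, as in 18.7% of all probes compared. It was called with the slide as a block (adjusted p = 0.0365), with common-probe scaling (adjusted p = 0.0290), with array weights (adjusted p = 0.0108), with the replicate number as a block (adjusted p = 0.0435) and in 4 of 16 fits without 1 array, where the adjusted p ran from 0.0155 to 0.184. The difference from gills stayed uncalled with quantile normalization and within slide 2 alone, and slide 1 held 1 array of each of these tissues. Over the 13 arrays outside hepatopancreas, subunit 1 correlated at 0.185 with the mean of the other members.

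The probes most like hemocyanin in profile were led by digestive proteases. Among tested probes with a named protein, the 10 with the highest correlation to the mean hemocyanin profile over 16 arrays reached 0.992 to 0.996. They included a trypsin from a named sequence (0.996), another trypsin probe, cluster018140 (0.996), cathepsin d (cluster027028, 0.995), a c-type lectin (cluster003996, 0.995) and myofilin isoform a (cluster027524, 0.994). Trypsin and cathepsin d are proteases, and C-type lectins bind sugars. The others were a zinc endopeptidase (cluster028432), a chymotrypsin-like proteinase from a named sequence, a probe described as GJ11407 (cluster028607), gamma-crystallin a (cluster018704) and protease inhibitor epi11 (cluster006744). Over the 5 tissue means their correlations were 0.997 to 0.999. Over the 13 arrays outside hepatopancreas, a set chosen after the values were seen, 9 of the same 10 led again, at 0.965 to 0.984.

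The trypsin probe also followed the spread between arrays of the same tissue. It had 12.09, 13.15 and 10.80 in hepatopancreas, -0.83, -3.90, -2.33 and 1.07 in hemocytes, 2.28, 2.87 and 3.60 in lymphoid organ, -0.33, -2.84 and -0.73 in gills and 3.05, -1.06 and 0.05 in muscle. Hemocyte array 4, gill array 1 and muscle array 1 were the highest of their tissues for trypsin, as for most hemocyanin probes. Its log2 differences between hepatopancreas and hemocytes, lymphoid organ, gills and muscle were 13.51, 9.09, 13.31 and 11.33. The median differences of the hemocyanin probes were 13.04, 8.49, 12.08 and 10.87.

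Outside hepatopancreas the digestive enzyme list was highest in lymphoid organ by the median array, as hemocyanin was, and the order of the other 3 tissues depended on the measure. The 87 tested digestive enzyme probes, of 108 on the array, summed to 93.3 to 194 times the 75th percentile in lymphoid organ, 32.5 to 117 in muscle, 52.2 to 85.0 in gills and 40.4 to 95.2 in hemocytes. Of the 87, 64 to 73 were detected per array in lymphoid organ, 29 to 40 in muscle, 47 to 66 in gills and 31 to 48 in hemocytes. In hemocytes against lymphoid organ 27 of the 87 were called lower and 2 higher, against 14.8% and 6.70% of all tested probes. In hepatopancreas against the mean of the other 4 tissues 58 of the 87 were called higher and 6 lower, with a median of 5.47, against 20.5% and 23.4% of all tested probes. In the same comparison 13 of 31 muscle probes were lower and 3 higher, 28 of 39 hemocyte probes were lower and 5 higher, and 26 of 83 gill probes were higher and 4 lower. The part of these transcripts in the hemocyanin levels outside hepatopancreas was not tested.

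Set against the mean of the other 4 tissues, most prophenoloxidase probes were lower in hepatopancreas. The list of hemocyanin relatives held 10 probes, of which 8 were called lower and 2 higher, with a median of -3.58. 1 of the 8 was for an activating factor, a protein outside the hemocyanin superfamily, and of the 9 prophenoloxidase probes 7 were lower and 2 higher. Against muscle alone, 2 of the 10 were called lower and 8 were not called, with a median of -1.03, where 24.1% of all tested probes were called lower. In the comparison with the mean of the other 4, 20.5% of all tested probes were called higher and 23.4% lower, with a median of -0.34, and the 15 hemocyanin probes had 14 higher and a median of 11.10. The proPO probe from a named sequence averaged -0.49 in hepatopancreas, 8.89 in hemocytes, 5.57 in lymphoid organ, 5.22 in gills and 1.99 in muscle, a difference of -5.91 (SE 0.85, adjusted p = 3.48e-05). Phenoloxidase activating factor (cluster033300), which belongs to the cascade that switches prophenoloxidase on, was undetected in hepatopancreas and at least 64.9-fold lower there than in the other tissues (adjusted p = 1.23e-07). The prophenoloxidase contigs cluster018525 and cluster018524 differed by -5.00 (adjusted p = 5.42e-05) and -4.73 (adjusted p = 7.14e-05). The 2 that were higher were the prophenoloxidase contig cluster030055, at least 6.36-fold (adjusted p = 0.00360), and proPOb, at least 5.82-fold (adjusted p = 0.0206). In single pairs 2 of the 10 were called higher against hemocytes and 2 against gills, but 0 against lymphoid organ and 0 against muscle.

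Of 26 tested probes in the list of copper and metal handling, 10 were higher and 5 lower in hepatopancreas, with a median of 0.35. This was again against the mean of the other 4 tissues, where 20.5% of all tested probes were called higher and 23.4% lower. The word search for copper also brought in 6 probes for a zinc endopeptidase, a protease, which account for 6 of the 10, 4 of them by the largest differences (fitted values of 8.33 to 11.66). High affinity copper uptake protein 1, a copper importer, was at least 11.1-fold higher in hepatopancreas by cluster001211 (adjusted p = 5.16e-05) and 1.33 higher on the log2 scale by cluster035956 (adjusted p = 0.0479). Probes for ferritin, the iron store, went both ways, at 3.53 for cluster033938 (adjusted p = 3.84e-06) and -3.36 for cluster034163 (adjusted p = 4.40e-05). These 4 were named after their values were seen.

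Other plasma proteins went both ways. Of 82 tested probes, 20 were higher and 34 lower in hepatopancreas against the mean of the other 4 tissues, with a median of -1.17. Of all tested probes 20.5% were called higher and 23.4% lower in that comparison. Among the higher were beta-glucan-binding protein (cluster023471, 10.29, adjusted p = 3.04e-06), a recognition protein of the hemolymph, and low-density lipoprotein receptor-related protein 2 (cluster019307, 9.47, adjusted p = 2.35e-08). Also higher were a low-density lipoprotein receptor domain class a probe (cluster033813, at least 375-fold) and apolipoprotein d-like (cluster012206, at least 207-fold, undetected elsewhere). The word search thus included receptors as well as plasma proteins. The protease inhibitor alpha2-macroglobulin was lower in hepatopancreas, at least 111-fold by cluster015622 (adjusted p = 9.39e-08), and averaged 8.22 in hemocytes by that probe, which was named after its values were seen.

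Of 33 probes for the machinery that moves proteins into the secretory route, 3 were higher, 6 lower and 24 not called in hepatopancreas, with a median of -0.19. Of all tested probes 43.9% were called in that comparison, 20.5% higher and 23.4% lower. Protein disulfide isomerase (cluster006137) fell by 2.53 on the log2 scale (SE 0.82, adjusted p = 0.0186), and signal peptidase complex subunit 1 (cluster013303) rose by 2.06 (SE 0.46, adjusted p = 0.00163). The signal recognition particle receptor alpha subunit fell by 1.97 in cluster017964 (adjusted p = 5.22e-05) and by 1.92 in cluster017963 (adjusted p = 1.06e-04). Of 4 tested oxygen and hypoxia probes 1 was called, hypoxia-inducible factor alpha subunit inhibitor (cluster009507), which had a difference of -2.24 (adjusted p = 3.84e-05).

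The scaling of the arrays shifted the differences. Of the 150 differences of the 15 probes in the 10 pairs of tissues, 1 changed sign with the other scaling, that of cluster030519 in gills minus muscle. With each array scaled to the 3238 probes detected everywhere, the median of all tested probes in hepatopancreas minus muscle moved to 0.63, against -0.24 with the 75th percentile, and the hemocyanin median moved to 11.75, against 10.87. In hepatopancreas minus the mean of the other 4 the median of all tested probes was 0.28 with that scaling and the hemocyanin median 11.72.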

How the data were processed

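Per the labels, total RNA of 5 tissues was labelled with Cy3 and hybridised to 1-colour arrays. The deposited table holds processed signal intensities and detection flags per spot, which the authors exported after scanning with Agilent Feature Extraction 10.7.3.1, per the submitters' processing notes. The deposited log2 values of the series matrix, of 13935 spots, differed from log2 signal by a single constant per array, as a comparison with the intensities showed.

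Here each array was scaled to the 75th percentile of its 13875 non-control probes and log2-transformed, and compromised spots were set to missing. A probe entered the tests when some tissue had it detected on all its usable arrays, which left 10317 probes and removed 3558. A mean per tissue was fitted with limma 3.58.1 (R 4.3.3, trended prior, 11 residual degrees of freedom), and the script was tested on simulated data. P-values were adjusted by Benjamini-Hochberg over all tested probes within each of 10 pairs of tissues, and within each tissue against the mean of the other 4. With 3 or 4 arrays per tissue, the number of arrays limits the precision. Each of 2 slides held 8 arrays, and every tissue lay on both. Slide 1 held 1 array each of hepatopancreas and gills, and slide 2 held 1 each of lymphoid organ and muscle. In fits within a slide, such a lone array was assumed to vary like the other tissues. Alternatives covered the scaling, the filter, low signals, the prior, the slide, the replicate number, array weights, the fold threshold and each array left out.

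The members and the lists were chosen with earlier results of these data known. Lists came from words in descriptions: digestive enzymes, muscle, hemocyte and gill markers, hemocyanin relatives, copper and metal handling, plasma proteins, secretory route, oxygen and hypoxia. Every array was given for members with the highest or lowest mean in a tissue or the largest or smallest difference between tissues, and also for subunit L and, in lymphoid organ and gills, cluster030425. Probes most like hemocyanin were the 10 with the highest correlation, 1 per description. From each list other than the markers, up to 4 called probes with the largest differences between hepatopancreas and the mean of the other 4 were named, besides those said to be chosen later.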

Additional observations from a re-analysis of the deposited data

How the results depend on the processing

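With 16 alternatives and each of 16 arrays left out in turn, 640 counts and medians over the 10 pairs of tissues were recomputed. The counts of hepatopancreas against hemocytes, gills and muscle stayed within 13 to 15 in all fits that counted every probe. With 1 probe per description, 5 of 6 were called against hemocytes, lymphoid organ and gills, 6 against muscle, 5 in hemocytes against lymphoid organ and 1 in lymphoid organ against gills, since fewer probes were counted. Fits within a slide held 1 array of some tissues, whose spread was taken from the others. In hepatopancreas against lymphoid organ, fewer were called within slide 2 than in the main fit. In hemocytes against lymphoid organ, 3 were called within slide 1 and 0 within slide 2. In lymphoid organ against gills, 8 were called with quantile normalization, 9 with array weights, 8 with only the 2 tissues compared and 0 within either slide, where the medians were 1.74 and 5.02. In lymphoid organ against muscle, 1 was called with quantile normalization, common-probe scaling or array weights and 3 with only the 2 tissues compared, and the median within slide 2 was 4.06. In hemocytes against muscle, 0 were called with the stricter filter, a fold threshold of 4 or within either slide, and 2 with only the 2 tissues compared, while 12, of which 11 were lower, were called with array weights, which turned the direction of the count, as did leaving out hemocyte array 4 (9, of which 8 were lower). In hemocytes against gills, 1 was called higher with array weights and 1 lower within slide 1. With 1 array left out, counts ranged over 0 to 11 in lymphoid organ against gills, 0 to 7 in lymphoid organ against muscle, 0 to 9 in hemocytes against muscle and 0 to 1 in hemocytes against gills. Medians with 1 array left out ran from -1.47 to 0.31 in hemocytes against gills. They ran from -2.13 to -0.19 in gills against muscle, and kept their sign there and in the other 8 pairs. The causes were not tested.

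Over 27 pairs of same-numbered samples of different tissues, deviations from the tissue means correlated at a median of 0.02 (-0.41 to 0.40). Of these 27 correlations, 8 exceeded 0.1. Over 75 pairs with different numbers the median was -0.02, and 17 exceeded 0.1. Deviations in different tissues of the same animal need not correlate, so this check cannot tell whether the numbers pair the samples. With the replicate number as a block, 7 probes were called in lymphoid organ against gills, 2 in hemocytes against muscle and 1 in hemocytes against gills, and the other 7 counts stayed within 1.5 times. Levels in hemocytes, gills and muscle lay near the detection limit for many probes, which limits small differences there.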
